A study of Mus musculus with 6 samples.

Results

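The genes of the Fanconi anemia (FA) pathway, of the homologous recombination steps that follow it and of the DNA damage checkpoint were examined in muscle stem cells (MuSCs) of the mouse. The group holds 35 genes chosen by symbol out of the 18943 genes of the deposited table, and each of the 35 has a row in it. The list was drawn up with earlier results of the same libraries known, so the counts over it are a description and not independent evidence. MuSCs are the Pax7-expressing cells that rebuild skeletal muscle after injury. They were purified by fluorescence-activated cell sorting from wild-type C57BL/6 mice aged 8 weeks and cultured for 5 days with the solvent DMSO, with endothelin-3 (ET-3) or with neurotensin (NT), and RNA-seq gave 2 libraries per group, 6 in all. ET-3 and NT are both peptides that signal through G protein-coupled receptors, and the DMSO cultures received neither. According to the labels both ligands were added at 100 nM, whereas the study's methods name higher concentrations for both and another library kit. The labels do not say whether the libraries of a group came from separate mice or cultures, so the p-values measure only the spread between these libraries, which may be technical.

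The FA pathway removes interstrand crosslinks, lesions that tie both strands of DNA together and block replication forks. A core complex of FANC proteins adds ubiquitin to the FANCD2 and FANCI pair (the ID2 complex), nucleases then cut the crosslink out, and BRCA proteins direct the homologous recombination that restores the broken strand. The kinases ATM and ATR sense breaks and single-stranded DNA and act through CHEK2 and CHEK1 to halt the cell cycle. Many of these genes are transcribed mainly in dividing cells, in late G1 and S phase.

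The deposited numbers, called values here, are whole numbers that behave as read counts scaled by a single factor in each library. They summed to between 4214458 and 4600575 per library, and the factors were 0.983 and 1.15 for DMSO, 1.19 and 1.09 for ET-3, and 0.855 and 0.781 for NT. Reads recovered with these factors numbered 3628952 and 3931934 in the ET-3 libraries, 4015164 and 4646637 in the DMSO libraries, and 4986598 and 5396233 in the NT libraries, so a value of 100 carries a counting error of between 8.84% and 10.9%. The stem cell and myoblast markers Pax7, Myf5 and Myod1 were detected in each library, whereas Calcr, a marker of quiescent MuSCs, lay between 0 and 3. The 2 ET-3 libraries, and likewise the 2 NT libraries, differed by no more than sampling noise (chi-square of 0.894 and 0.967 on average over the genes), and the DMSO libraries differed slightly more, at 1.44. The treated libraries were kept as 2 per group, and the counts of calls with each treated pair taken as 1 sample are given as well.

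Against DMSO, most of the 35 genes were higher under either ligand. With ET-3, 29 of the 35 rose at an adjusted p of at most 0.05 (limma, Benjamini-Hochberg over the 13921 genes tested), against a background of 30.6% of all tested genes, and 1, Mus81, fell, against a background of 33.2%. With NT, 32 rose against a background of 29.7%, and Mus81 again fell, against a background of 32.5%. The other 5 genes under ET-3 (Fancg, Rad51b, Rad51c, Xrcc2 and Xrcc3) and the other 2 under NT (Rad51b and Rad51c) did not pass. At least 2-fold rises were reached by 13 genes under ET-3, where 6.62% of all genes did so, and by 15 under NT, where 7.30% did so, and 0 of the 35 fell by as much under either ligand, where 14.9% and 13.2% of all genes did. The median log2 fold change of the 35 was 0.83 under ET-3 and 0.86 under NT, beside -0.01 for all tested genes in both comparisons. The summed value of the 35 genes was 6676 and 6615 in the DMSO libraries, 11556 and 11717 under ET-3, and 12653 and 12642 under NT. In 30 of the 35 genes all 4 treated libraries lay above both DMSO libraries, which holds for 33.2% of all genes. The exceptions were Fancg, Rad51b, Rad51c, Xrcc2 and Mus81. Both ligands were compared with the same 2 DMSO libraries.

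Counting each treated pair as 1 sample left 15 of the 35 genes past the threshold of 0.05 under ET-3 and 17 under NT. In that fit the rises over all 13921 tested genes numbered 1467 under ET-3 and 1275 under NT, in place of 4257 and 4131. The 15 genes were Fanca, Fancb, Ube2t, Fancd2, Usp1, Brca1, Bard1, Brca2, Brip1, Blm, Exo1, Eme1, Msh6, Atm and Topbp1, and under NT Fancm and Atrip passed besides them. The other 15 calls under ET-3 and 16 under NT were lost in that fit. Scaling to the library totals instead raised the median of all tested genes to 0.08 under ET-3 and 0.10 under NT. Under that scaling 55.6% of all calls under ET-3 and 58.3% under NT were rises, in place of 48.0% and 47.7%, and 31 and 32 of the 35 genes rose.

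**Figure D1:**
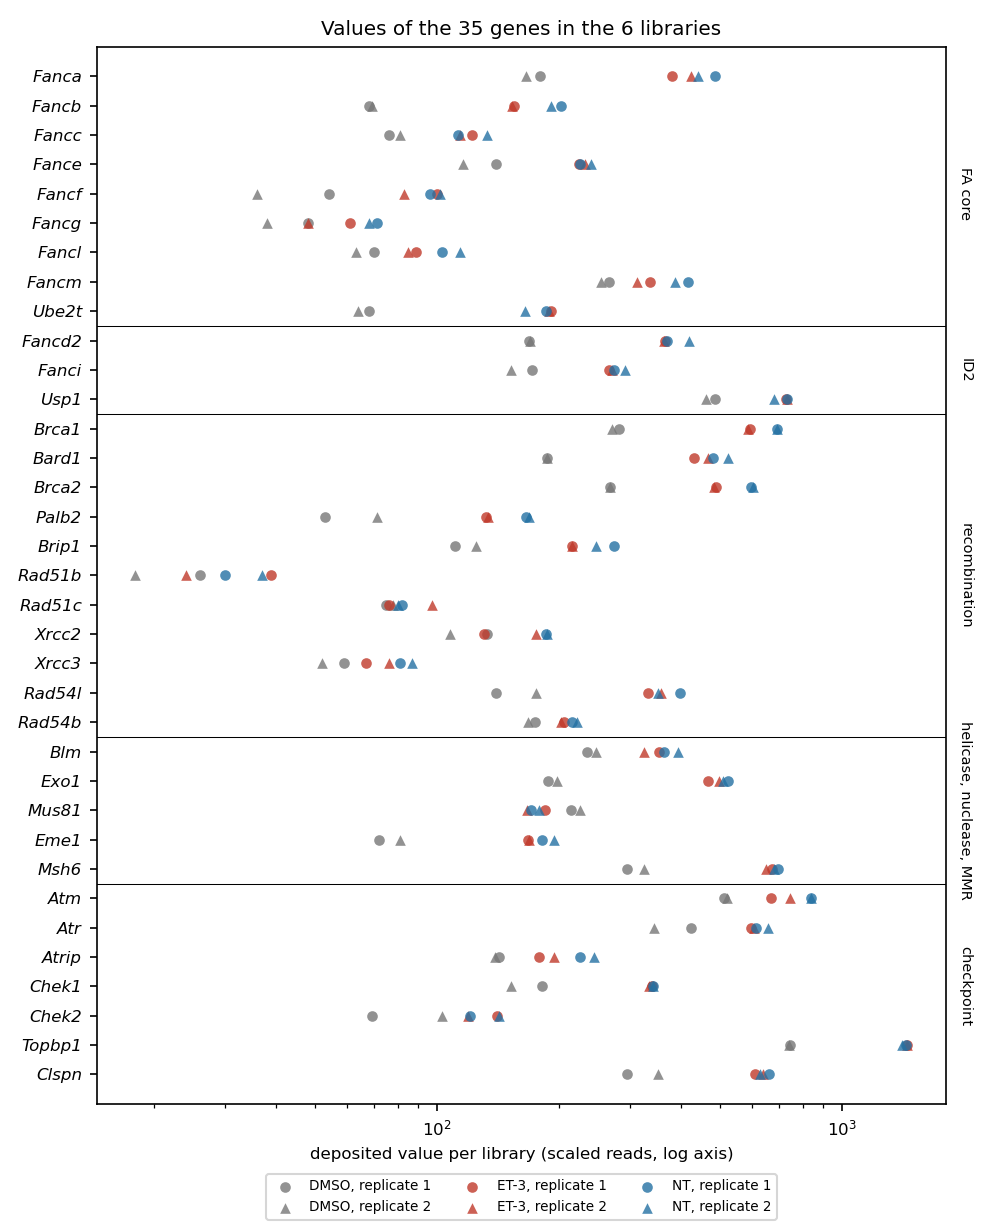
Deposited value (scaled reads, log axis) of each of the 35 genes in the 6 libraries, with grey for DMSO, red for ET-3 and blue for NT, circles for replicate 1 and triangles for replicate 2, and the genes ordered by role. The treated points lie to the right of both DMSO points in 30 of the 35 genes (33.2% of all tested genes), and to the left of them for Mus81. Over all tested genes, both ET-3 libraries lie below both DMSO libraries in 40.7%, and both NT libraries in 41.7%.

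Other cell states moved with the same contrast. All 20 markers of proliferation rose under ET-3 and 19 under NT, with a median log2 fold change of 0.74 and 0.65, and their summed value was 11908 and 12356 under DMSO, 19602 and 19100 under ET-3, and 18329 and 17370 under NT. The summed value of the 35 genes divided by that of the proliferation markers was 0.561 and 0.535 under DMSO, 0.590 and 0.613 under ET-3, and 0.690 and 0.728 under NT. This ratio gives most weight to genes with high values. Mki67, Top2a and Rrm2, the highest markers, had log2 fold changes of 0.45, 0.48 and 0.41 under ET-3 and 0.44, 0.34 and 0.12 under NT. Over the 20 markers the range was 0.41 to 1.07 under ET-3 and 0.12 to 1.13 under NT. All 10 markers of muscle differentiation fell by over 2-fold under both ligands, and their summed value was 14032 and 15592 under DMSO but between 338 and 482 in the treated libraries. Myog, the transcription factor that starts differentiation, had values of 1157 and 1335 under DMSO and of 28 to 38 in the treated libraries. Of the 9 stem cell and myoblast markers tested, 3 rose and 4 fell under ET-3, and 3 rose and 5 fell under NT. The part of proliferation and of differentiation in the values of the 35 genes was not tested, and in these bulk libraries a change in the share of cells that express a gene cannot be told apart from a change in its RNA per cell. The 6 endothelial markers summed to 36 and 22 under DMSO and to between 98 and 126 in the treated libraries. Of the 4 that were tested, 2 rose by at least 2-fold under ET-3 and 3 under NT. Tek stood between 42 and 70 in the treated libraries against 2 and 1 under DMSO. Kdr had 16 and 6 under DMSO, 24 and 25 under ET-3, and 26 and 23 under NT. Pecam1 had 6 and 3, 10 and 7, and 15 and 9, and Cdh5 lay between 0 and 5 in every library. The 3 markers of macrophages and blood cells summed to between 21 and 45. The 8 markers of smooth muscle and pericytes summed to 4423 and 5032 under DMSO and to between 1032 and 1209 in the treated libraries. Of the treated sums, Cspg4 held between 433 and 509, Notch3 between 284 and 409 and Acta2 between 251 and 281. Abcc9 fell from 851 and 835 under DMSO to between 0 and 4, Pdgfrb from 227 and 278 to between 3 and 13, and Rgs5 from 117 and 150 to between 2 and 5. The 6 fibroadipogenic markers summed to 888 and 970 under DMSO and to between 480 and 556 in the treated libraries. Of that last sum Gsn alone made up 740 and 805 under DMSO and between 307 and 402 in the treated libraries. Smoc2 and Ly6a of the same list rose under both ligands, whereas Col15a1 fell from 80 and 82 under DMSO to 0 or 1. Of the 5 fibroadipogenic markers tested, 2 rose and 2 fell under ET-3, and 3 rose and 2 fell under NT. The 7 Schwann cell markers summed to 3535 and 3724 under DMSO and to between 1794 and 1911 in the treated libraries. Of these sums Ncam1, which muscle cells also express, made up 3326 and 3513 under DMSO and between 1649 and 1785 in the treated libraries. The part of these other markers was not tested.

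Among the 9 genes of the FA core complex, its DNA anchor and its ubiquitin-conjugating enzyme, 8 rose under ET-3 and all 9 under NT, 4 of them by at least 2-fold under each ligand. Over all tested genes, 30.6% rose under ET-3 and 29.7% under NT, and 6.62% and 7.30% rose by at least 2-fold. Ube2t encodes the E2 enzyme that hands ubiquitin to FANCD2, and had the largest rise of the 35 genes under ET-3. Its values were 68 and 64 under DMSO, 191 and 189 under ET-3, and 186 and 165 under NT. All 4 treated libraries lay far above the DMSO libraries. The log2 fold change was 1.51 (SE 0.11, limma adjusted p = 1.01e-06) under ET-3 and 1.40 (SE 0.11, limma adjusted p = 1.92e-06) under NT. Fancl, the RING-type E3 ligase that works with this enzyme, had a smaller rise. Its values were 70 and 63 under DMSO, 89 and 85 under ET-3, and 103 and 114 under NT, and its log2 fold changes were 0.38 (SE 0.14, limma adjusted p = 0.0300) and 0.70 (SE 0.14, limma adjusted p = 0.00126). The rise of Fancl under ET-3 did not pass without the second DMSO library (0.31, adjusted p = 0.107), without the first ET-3 library (0.35, adjusted p = 0.107) or without the second (0.42, adjusted p = 0.0642).

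Fanca, a scaffold of the core complex, had values of 180 and 166 under DMSO, 381 and 423 under ET-3, and 486 and 442 under NT. Its log2 fold changes were 1.21 (SE 0.08) under ET-3 and 1.42 (SE 0.08) under NT. Fancb, an X-linked gene whose protein forms the catalytic module of the complex with FANCL, had values of 68 and 69, then 155 and 153, then 202 and 191 in the DMSO, ET-3 and NT libraries. The log2 fold change of Fancb was 1.16 (SE 0.10) under ET-3 and 1.51 (SE 0.10) under NT, the highest of the 35 genes under NT. For both genes the 3 groups did not overlap, as NT lay above ET-3 and ET-3 above DMSO. The difference between NT and ET-3 did not pass for Fanca (0.21, limma adjusted p = 0.178) or Fancb (0.35, limma adjusted p = 0.0955). Both NT libraries lay above both ET-3 libraries in 27.7% of all genes. Fancf, a small adaptor subunit, had 54 and 36 under DMSO, 100 and 83 under ET-3, and 96 and 102 under NT, and its log2 fold changes of 1.03 and 1.15 carried a larger SE of 0.20. The rise of Fancf did not pass once each treated pair was taken as 1 sample (adjusted p = 0.147 under ET-3 and 0.131 under NT).

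Fance, the subunit that contacts FANCD2, stood at 140 and 116 under DMSO, 224 and 232 under ET-3, and 226 and 240 under NT, for log2 fold changes of 0.83 and 0.86 (SE 0.10). Fancc, which binds FANCE and FANCF, stood at 76 and 81, 122 and 114, and 113 and 133, with log2 fold changes of 0.58 and 0.64 (SE 0.13). Fancm, the DNA translocase that recruits the complex to stalled forks, stood at 266 and 254 under DMSO, 335 and 311 under ET-3, and 416 and 387 under NT. Its 3 groups were in separate ranges, with log2 fold changes of 0.31 and 0.62 (SE 0.07). Fancg, another scaffold subunit, was the one core gene in which a treated library did not exceed both DMSO libraries. It had values of 48 and 38 under DMSO, 61 and 48 under ET-3, and 71 and 68 under NT. The difference did not pass under ET-3 (0.33, SE 0.20, limma adjusted p = 0.161), and the rise under NT (0.69, SE 0.20, limma adjusted p = 0.0112) was lost without the second DMSO library (0.52, adjusted p = 0.105), without the first NT library (0.66, adjusted p = 0.0770) and without the second (0.72, adjusted p = 0.0587).

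The ID2 complex and the enzyme that strips its ubiquitin rose as a trio, though by different amounts. Fancd2 (chr6:113531682-113597017, GRCm38, plus strand) had values of 169 and 170 under DMSO, 366 and 363 under ET-3, and 369 and 419 under NT. That is a log2 fold change of 1.10 (SE 0.07, limma adjusted p = 6.89e-07) under ET-3 and of 1.21 (SE 0.07, limma adjusted p = 3.84e-07) under NT. Fanci, its partner in the clamp, had 172 and 152 under DMSO, 266 and 271 under ET-3, and 274 and 292 under NT. Its log2 fold changes were lower, at 0.73 and 0.80 (SE 0.08). Usp1, the deubiquitinase, had 486 and 462, then 726 and 733, then 733 and 678, with log2 fold changes of 0.62 and 0.57 (SE 0.05).

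Of the 11 recombination genes, 7 rose under ET-3 and 9 under NT, where 30.6% and 29.7% of all tested genes did so. Brca1 (chr11:101488764-101551955, GRCm38, minus strand) had values of 282 and 270 under DMSO, 592 and 586 under ET-3, and 692 in both NT libraries. The log2 fold change was 1.09 (SE 0.05, limma adjusted p = 5.77e-08) under ET-3 and 1.32 (SE 0.05, limma adjusted p = 1.83e-08) under NT. Bard1, the RING partner that forms a ubiquitin ligase with BRCA1, had 187 in both DMSO libraries, 431 and 467 under ET-3, and 480 and 523 under NT. Its rise was of similar size, with log2 fold changes of 1.26 and 1.42 (SE 0.07). Brca2 (chr5:150522630-150570329, GRCm38, plus strand), a recombination mediator that works at single-stranded DNA, had 268 in both DMSO libraries, 490 and 484 under ET-3, and 595 and 604 under NT. The 3 ranges of Brca2 were well apart, and its log2 fold changes were 0.86 and 1.16 (SE 0.05). Palb2, the bridge between BRCA1 and BRCA2, had 53 and 71 under DMSO, 132 and 134 under ET-3, and 166 and 169 under NT, for log2 fold changes of 1.10 and 1.43 (SE 0.14). Brip1, a helicase bound to BRCA1, had 111 and 125, 216 and 215, and 273 and 247, with log2 fold changes of 0.87 and 1.13 (SE 0.09).

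The products of Rad51b, Rad51c, Xrcc2 and Xrcc3 assemble into complexes that assist homologous recombination. Rad51c, found in each of these complexes, had values of 75 and 78 under DMSO, 76 and 97 under ET-3, and 82 and 80 under NT. The groups overlapped, and the log2 fold changes of 0.16 (SE 0.15, limma adjusted p = 0.370) and 0.08 (SE 0.15, limma adjusted p = 0.664) did not pass. Rad51b was the lowest of the 35 genes, with 26 and 18 under DMSO, 39 and 24 under ET-3, and 30 and 37 under NT. At 15.7 recovered reads its lowest library has a counting error of 25.2%, and the log2 fold changes of 0.48 and 0.60 (SE 0.30, limma adjusted p = 0.188 and 0.109) did not pass. Xrcc2 had 133 and 108 under DMSO, 131 and 176 under ET-3, and 186 and 187 under NT. The ET-3 libraries of Xrcc2 overlapped DMSO (0.34, SE 0.15, limma adjusted p = 0.0669), and without the first ET-3 library the difference passed (0.55, adjusted p = 0.0226). With NT it rose (0.63, SE 0.15, limma adjusted p = 0.00370), but not without the second DMSO library (0.48, adjusted p = 0.116). Xrcc3 had 59 and 52, 67 and 76, and 81 and 87. It did not pass under ET-3 (0.36, SE 0.16, limma adjusted p = 0.0666), and its rise under NT (0.59, SE 0.16, limma adjusted p = 0.00755) was lost without the second DMSO library (0.50, adjusted p = 0.0574) or the second NT library (0.54, adjusted p = 0.0610).

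The RAD54 proteins are DNA translocases of homologous recombination. Rad54l had values of 140 and 176 under DMSO, 332 and 358 under ET-3, and 398 and 352 under NT, for log2 fold changes of 1.13 and 1.25 (SE 0.11). Rad54b had a smaller rise, from 175 and 168 under DMSO to 206 and 203 under ET-3 and 215 and 222 under NT, for log2 fold changes of 0.25 and 0.35 (SE 0.08). Without the first ET-3 library the rise of Rad54b under ET-3 did not pass (0.24, adjusted p = 0.0577). Rad54b shares 35.8% of its exonic bases with Fsbp on the same strand, and its reads can be uncertain for that reason.

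**Figure D2:**
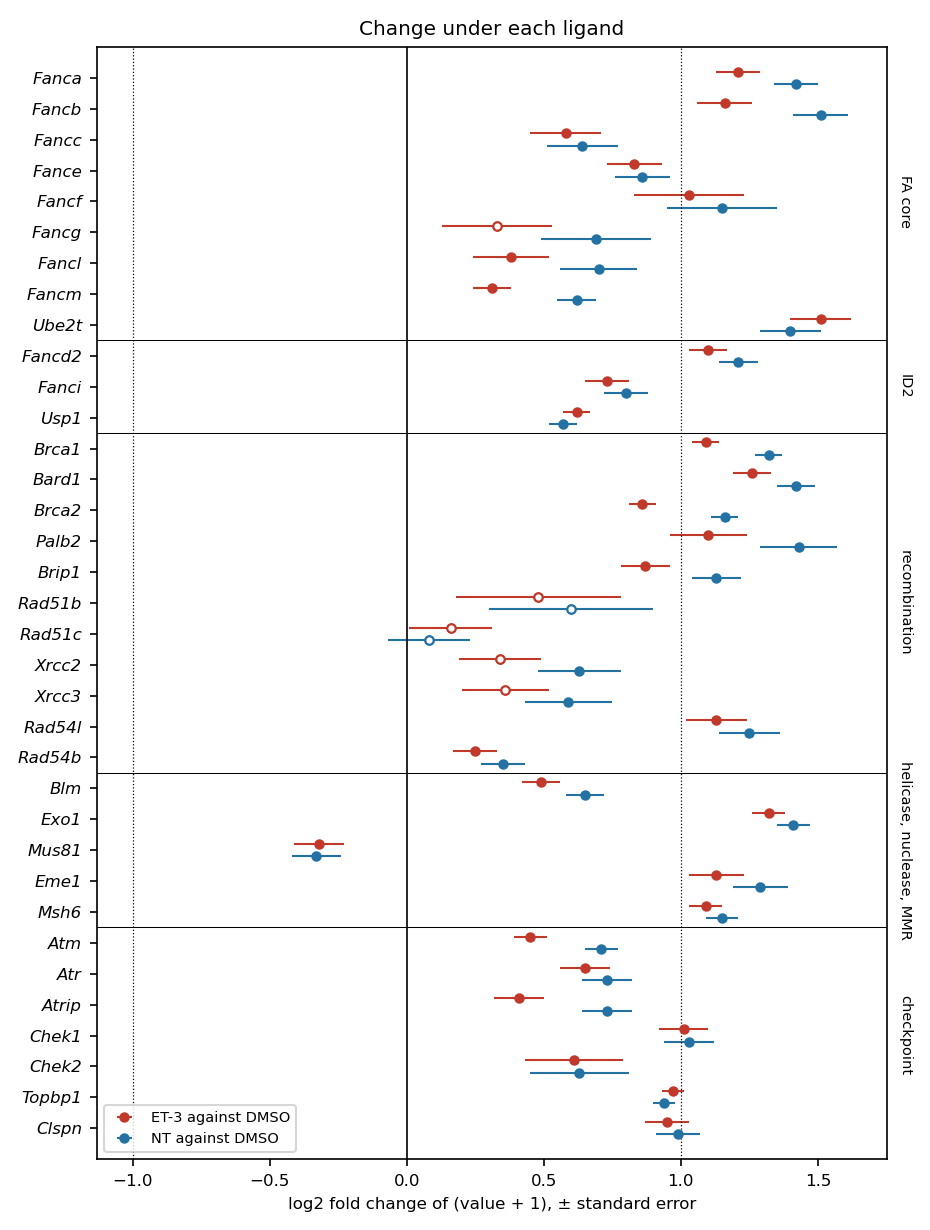
Log2 fold change against DMSO of each of the 35 genes under ET-3 (red) and NT (blue), from the limma fit on log2(value + 1), with bars of 1 SE and open symbols where the adjusted p exceeded 0.05. Ube2t was highest under ET-3 at 1.51, Fancb reached 1.51 under NT, and Mus81 was the one gene below 0, at -0.32 and -0.33.

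Among the helicase, nuclease and mismatch repair genes, 4 rose and 1 fell under each ligand. Over all tested genes, 30.6% rose and 33.2% fell under ET-3, and 29.7% rose and 32.5% fell under NT. Exo1, the exonuclease that resects broken ends and acts in mismatch repair, had values of 188 and 198 under DMSO, 468 and 496 under ET-3, and 522 and 508 under NT, for log2 fold changes of 1.32 and 1.41 (SE 0.06). Msh6, which takes part in recognizing mismatches, had 294 and 324, 672 and 648, and 697 and 679, with log2 fold changes of 1.09 and 1.15 (SE 0.06). Blm, a helicase that dissolves recombination intermediates, had 235 and 247, 353 and 325, and 364 and 394, with log2 fold changes of 0.49 and 0.65 (SE 0.07).

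Mus81 and Eme1, whose products form a single structure-specific endonuclease, went in opposite directions. Eme1 (chr11:94644996-94653964, GRCm38, minus strand), the non-catalytic subunit, had values of 72 and 81 under DMSO, 168 and 169 under ET-3, and 182 and 194 under NT. It rose with log2 fold changes of 1.13 (SE 0.10, limma adjusted p = 6.91e-06) and 1.29 (SE 0.10, limma adjusted p = 2.95e-06). Mus81 (chr19:5482345-5488402, GRCm38, minus strand), the catalytic subunit, had 214 and 226 under DMSO, 185 and 167 under ET-3, and 171 and 179 under NT. All 4 treated libraries lay below both DMSO libraries, with log2 fold changes of -0.32 (SE 0.09, limma adjusted p = 0.00817) and -0.33 (SE 0.09, limma adjusted p = 0.00757). Over all tested genes, both ET-3 libraries lay below both DMSO libraries in 40.7%, and both NT libraries in 41.7%. The fall of Mus81 is small and did not pass with each treated pair as 1 sample (adjusted p = 0.0872 under ET-3 and 0.0882 under NT). Scaled to library totals, it was -0.23 under ET-3 (adjusted p = 0.0365) and -0.22 under NT (adjusted p = 0.0510). It also did not pass under ET-3 without the second DMSO library (-0.28, adjusted p = 0.0674) or the second ET-3 library (-0.25, adjusted p = 0.0599), nor under NT without the second DMSO library (-0.29, adjusted p = 0.0671) or the first NT library (-0.30, adjusted p = 0.0653).

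All 7 checkpoint genes rose under both ligands, but only Chek1 by 2-fold. Over all tested genes, 30.6% rose under ET-3 and 29.7% under NT, and 6.62% and 7.30% rose by at least 2-fold. With each treated pair as 1 sample, Atm and Topbp1 passed under ET-3 and Atm, Atrip and Topbp1 under NT, and Chek1 had limma adjusted p = 0.0576 and 0.0593. Chek1, the kinase downstream of ATR, had values of 182 and 152 under DMSO, 340 and 333 under ET-3, and 342 and 341 under NT, for log2 fold changes of 1.01 and 1.03 (SE 0.09). Topbp1, which activates ATR, had the highest values of the 35 genes, at 744 and 738 under DMSO, 1446 and 1451 under ET-3, and 1441 and 1407 under NT. Its log2 fold changes of 0.97 and 0.94 had the smallest SE of the 35, at 0.04. Clspn, the adaptor through which ATR phosphorylates CHEK1, had 295 and 352, 611 and 638, and 660 and 626, with log2 fold changes of 0.95 and 0.99 (SE 0.08). The kinases at the top of the pathways had smaller log2 fold changes than these 3 genes. Atr had 425 and 344 under DMSO, 597 and 608 under ET-3, and 614 and 657 under NT, for log2 fold changes of 0.65 and 0.73 (SE 0.09). Atrip, its obligate partner, had 142 and 139, 179 and 195, and 225 and 244, with log2 fold changes of 0.41 and 0.73 (SE 0.09). Atm, the kinase activated by double-strand breaks, had 510 and 519, 668 and 743, and 841 and 840, with log2 fold changes of 0.45 and 0.71 (SE 0.06). Chek2, its effector kinase, had 69 and 103 under DMSO, 141 and 119 under ET-3, and 121 and 142 under NT, for log2 fold changes of 0.61 and 0.63 (SE 0.18). The DMSO libraries of Chek2 stood far apart, and without the first of them the log2 fold changes were 0.33 (adjusted p = 0.176) and 0.34 (adjusted p = 0.160). The rise of Chek2 under ET-3 was also lost without the first ET-3 library (0.49, adjusted p = 0.157) or the second (0.73, adjusted p = 0.0533), and that under NT without the second NT library (0.52, adjusted p = 0.138).

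Ratios between partners, in values per kilobase of exon, show how unevenly the members of a complex moved. The log2 ratio of Mus81 to Eme1 was 1.20 and 1.11 under DMSO, -0.23 and -0.39 under ET-3, and -0.46 and -0.49 under NT. On this scale the sign turned in each treated library. In the values themselves Mus81 still lay above Eme1 in the first ET-3 library, at 185 against 168. For Ube2t to Fancl it was -0.56 and -0.50 under DMSO, 0.58 and 0.63 under ET-3, and 0.33 and 0.01 under NT. On this scale the sign turned here as well, though the second NT library stood near equality. The ratio of Fancd2 to Fanci was -0.48 and -0.30 under DMSO, 0.00 and -0.04 under ET-3, and -0.03 and 0.06 under NT, higher in the treated libraries. Usp1 to Fancd2 was 2.61 and 2.53 under DMSO, 2.08 and 2.10 under ET-3, and 2.08 and 1.78 under NT. Atr to Chek1 was lower in the treated libraries, at -1.13 and -1.17 under DMSO, -1.54 and -1.48 under ET-3, and -1.51 and -1.40 under NT. Brca1 to Bard1 lay between -0.27 and 0.00 in the 6 libraries. The DMSO range of this ratio, from -0.06 to 0.00, met the NT range, from -0.19 to -0.06. For Brca2 to Palb2 (1.44 and 1.02), Atr to Atrip (-0.14 and -0.42) and Atm to Chek2 (1.10 and 0.55) the DMSO libraries themselves stood far apart. The lengths join all annotated exons of a gene, so the sign of a ratio depends on them and its change between groups does not. The ratios are given without a test.

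**Figure D3:**
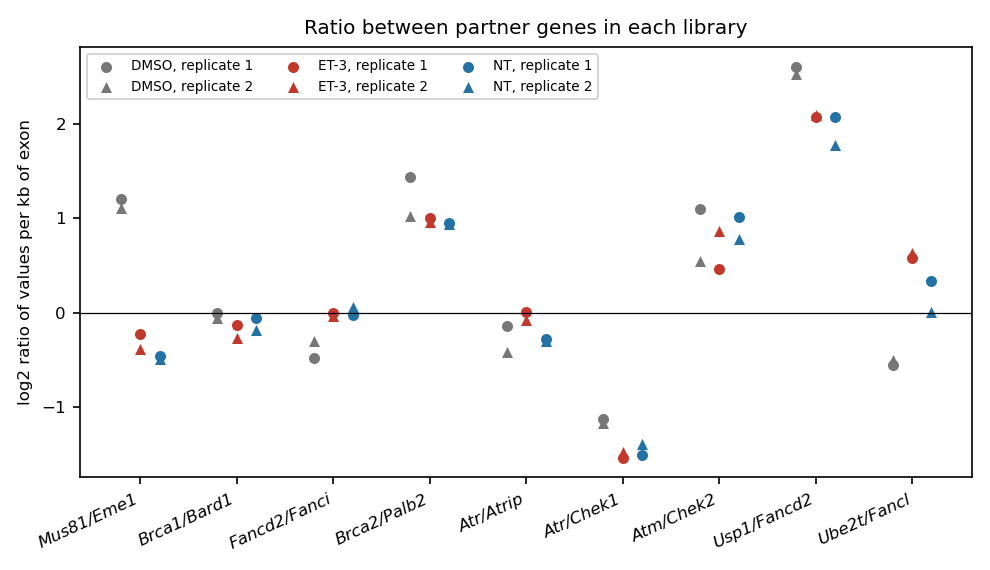
Log2 ratio of values per kilobase of exon for 9 pairs of genes whose products work together, 1 point per library, with grey for DMSO, red for ET-3 and blue for NT. For Mus81/Eme1 the DMSO libraries sit at 1.20 and 1.11 and all 4 treated libraries below 0.

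By level per kilobase of exon, Usp1, Msh6 and Topbp1 were the 3 highest of the 35 genes in each group, and Rad51b the lowest. These ranks depend on the same exon lengths. Group means of Usp1 were 127, 195 and 189 per kilobase in DMSO, ET-3 and NT, and those of Rad51b were 5.86, 8.38 and 8.92. Mus81 held rank 4 under DMSO, at 61.7 per kilobase, directly below Topbp1 at 66.0. In the treated groups its level of 49.3 under ET-3 and 49.1 under NT was below those of Clspn (86.9 and 89.5), Bard1 (79.3 and 88.6) and Chek1 (72.6 and 73.7), which had been at 45.0, 33.0 and 36.0 under DMSO.

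Between the ligands, the 35 genes were more often higher under NT than under ET-3, by small amounts. By the adjusted p, 4 genes were higher under NT, where 0.647% of all tested genes were, and 0 were lower, where 2.05% were. At an unadjusted p under 0.05, 12 were higher, against a background of 9.66%, and 0 lower, against 10.2%. At least 2-fold differences numbered 0 in either direction, with backgrounds of 0.0503% and 0.0287%. The 4 genes were Fancm (log2 difference 0.31, SE 0.07, limma adjusted p = 0.0466), Brca1 (0.23, SE 0.05, limma adjusted p = 0.0468), Brca2 (0.30, SE 0.05, limma adjusted p = 0.0379) and Atm (0.25, SE 0.06, limma adjusted p = 0.0485). In each of them both NT libraries lay above both ET-3 libraries, as in 23 of the 35 genes and in 27.7% of all genes. The median log2 difference of the 35 genes was 0.12, beside 0.03 for all tested genes. Leaving out any of the 6 libraries left 0 of the 4 calls, and so did counting each treated pair as 1 sample, where the adjusted p of each was 0.712. In each of these 7 fits 0 of the 13921 tested genes passed in either direction, and with a library left out the log2 difference was 0.26 to 0.37 for Fancm, 0.22 to 0.24 for Brca1, 0.29 to 0.31 for Brca2 and 0.18 to 0.33 for Atm. The NT libraries were also the deepest, and the part of depth was not tested. Proliferation markers had a median log2 difference of -0.13 in this comparison. Scaling to library totals again gave 4 genes higher, while over all genes 38.1% of the calls were then higher under NT in place of 24.0%.

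Genes of the same pathways outside the 35 moved in part the same way. Of all tested genes, 30.6% rose and 33.2% fell under ET-3, and 29.7% rose and 32.5% fell under NT. Of 16 other FA and crosslink repair genes, 8 rose and 3 fell under ET-3, and 11 rose and 2 fell under NT, with median log2 fold changes of 0.22 and 0.34. Cenps, a histone-fold partner of FANCM, rose from 57 and 61 under DMSO to 137 and 126 under ET-3 and 142 in both NT libraries, with log2 fold changes of 1.14 and 1.25 (SE 0.12). Of 28 other homologous recombination genes, 17 rose and 6 fell under ET-3, and 19 rose and 3 fell under NT, with medians of 0.49 and 0.58. Those that rose by at least 2-fold with both were Dna2, a nuclease and helicase of end resection (1.29 and 1.36, SE 0.08), Rmi2, a subunit of the BLM complex (1.31 and 1.05, SE 0.27), and Recql4, a helicase (1.02 and 1.05, SE 0.16). Of 24 other checkpoint and damage response genes with a row, 16 rose and 3 fell under ET-3, and 18 rose and 3 fell under NT, with medians of 0.49 and 0.41. Etaa1, an activator of ATR that acts beside TOPBP1, rose from 92 and 73 under DMSO to 201 and 232 under ET-3 and 227 and 236 under NT. Cdc25a, the phosphatase that checkpoint kinases mark for destruction, rose from 284 and 265 to 676 and 632, and to 628 and 619. Of 7 other mismatch repair genes tested, 4 rose and 0 fell under each ligand. Under ET-3, at least 2-fold rises in these 4 lists numbered 1, 3, 2 and 1, in the order given. Under NT they numbered 2, 4, 2 and 1. Falls as large numbered 0, 1, 1 and 0 under ET-3 and 0 in each list under NT. Of all genes, 6.62% and 7.30% rose and 14.9% and 13.2% fell by as much under ET-3 and NT.

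Targets of the p53 transcription factor, which the damage checkpoint activates, did not rise with the checkpoint genes. Of 20 such genes, 0 rose and 15 fell under each ligand, with median log2 fold changes of -0.77 and -0.70. Among all tested genes, 33.2% fell under ET-3 and 32.5% under NT. Eda2r, a member of the TNF receptor family, fell from 860 and 755 under DMSO to 195 and 163 under ET-3 and 180 and 198 under NT. Pmaip1, which encodes the pro-apoptotic protein NOXA, fell from 513 and 548 to 145 and 158, and to 119 and 148. Btg2, an antiproliferative gene, fell from 288 and 305 to 80 and 78, and to 75 and 81. Fas, a death receptor, fell from 27 and 24 under DMSO to 2 and 7 under ET-3 and 3 and 2 under NT. Some of these genes also respond to differentiation and to other stresses, and the activity of p53 was not measured.

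**Figure D4:**
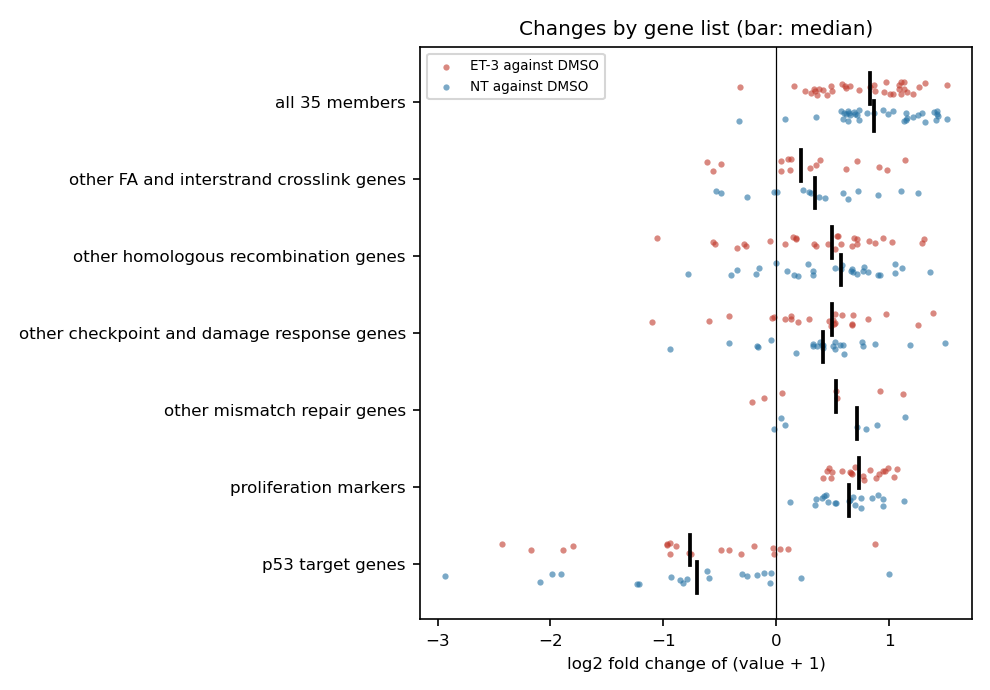
Log2 fold change against DMSO of each tested gene in the 35-gene group, in the other DNA repair, checkpoint and p53 target lists and in the proliferation markers, ET-3 in red and NT in blue, 1 point per gene and a bar at each list's median. The 35 genes have medians of 0.83 and 0.86, and the p53 targets medians of -0.77 and -0.70.

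The promoters of the 35 genes were searched for 3 motifs that recur in cell cycle genes, on both strands. They were the E2F-type octamers TTTCGCGC, TTTGGCGC, TTTCCCGC and TTTGCCGC, the CHR element TTTGAA and the CCAAT box. RefSeq (GRCm38.p6) gave 33 windows of 300 bases, from 250 bases before to 50 after a start site, for 30 of the genes. An E2F-type octamer was present in 9 of the 33 windows (27.3%, against 2.26% of all 32851 windows), a CCAAT box in 21 (63.6%, against 37.4%) and the CHR element in 3 (9.09%, against 17.9%). The genes with an E2F-type octamer were Bard1, Brca2, Chek2, Clspn, Fancg, Msh6, Rad51c and Topbp1, which range from a log2 fold change of 0.16 (Rad51c) to 1.26 (Bard1) under ET-3. Matches of any kind were found in 25 genes. Atr, Chek1, Fanci, Fancl and Mus81 had none in their windows. A match is a string of letters and not a measured binding site, and the shares are given without a test.

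Stretches upstream of the start are shown for the 4 genes with the most matches, taken in alphabetical order where matches were equal in number. Mus81 is shown as the only gene without a match that had a long enough stretch outside exons. Mus81 fell, whereas Atr, Chek1, Fanci and Fancl, also without a match, rose under both ligands. Exonic bases are left out, the strands read 5′ to 3′ in the direction of the gene, and capitals mark motif letters, with ATTGG being a CCAAT box and GCGGGAAA an E2F-type octamer on the opposite strand. The Xrcc3 stretch (chr12:111813880-111814129, minus strand) holds 6 CCAAT boxes, 2 of which adjoin on opposite strands. The Brip1 stretch (chr11:86201194-86201369, minus strand) holds 3 CCAAT boxes, the Chek2 stretch (chr5:110839778-110839978, plus strand) 1 octamer and 2 CCAAT boxes, and the Clspn stretch (chr4:126556730-126556934, plus strand) 1 CCAAT box, its other matches lying in exonic bases. The Mus81 stretch is chr19:5488403-5488629, minus strand.
Xrcc3: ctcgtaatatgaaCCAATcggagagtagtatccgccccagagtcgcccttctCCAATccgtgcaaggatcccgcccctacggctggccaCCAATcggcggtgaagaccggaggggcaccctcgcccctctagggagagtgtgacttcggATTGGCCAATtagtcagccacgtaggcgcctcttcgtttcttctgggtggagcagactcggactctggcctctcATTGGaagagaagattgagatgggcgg
Brip1: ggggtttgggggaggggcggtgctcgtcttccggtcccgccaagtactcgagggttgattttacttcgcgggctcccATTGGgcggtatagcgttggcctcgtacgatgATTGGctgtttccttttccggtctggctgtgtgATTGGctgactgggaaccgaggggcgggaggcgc
Chek2: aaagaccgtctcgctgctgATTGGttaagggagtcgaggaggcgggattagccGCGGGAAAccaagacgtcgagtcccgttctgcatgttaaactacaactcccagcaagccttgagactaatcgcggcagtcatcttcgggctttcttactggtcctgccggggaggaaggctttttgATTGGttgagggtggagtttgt
Clspn: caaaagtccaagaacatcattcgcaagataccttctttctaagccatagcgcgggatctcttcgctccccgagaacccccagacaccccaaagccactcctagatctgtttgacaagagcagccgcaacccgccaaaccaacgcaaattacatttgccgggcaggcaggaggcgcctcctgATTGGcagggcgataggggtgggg
Mus81: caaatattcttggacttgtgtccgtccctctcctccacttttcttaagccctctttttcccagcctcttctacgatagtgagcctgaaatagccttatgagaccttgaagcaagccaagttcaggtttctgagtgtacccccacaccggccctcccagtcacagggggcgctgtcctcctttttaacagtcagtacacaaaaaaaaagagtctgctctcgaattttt

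Xrcc3, with the most CCAAT boxes, was among the genes that did not pass under ET-3, whereas Brip1 rose under both ligands, so the number of boxes did not order these genes by their fold change.

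**Figure D5:**
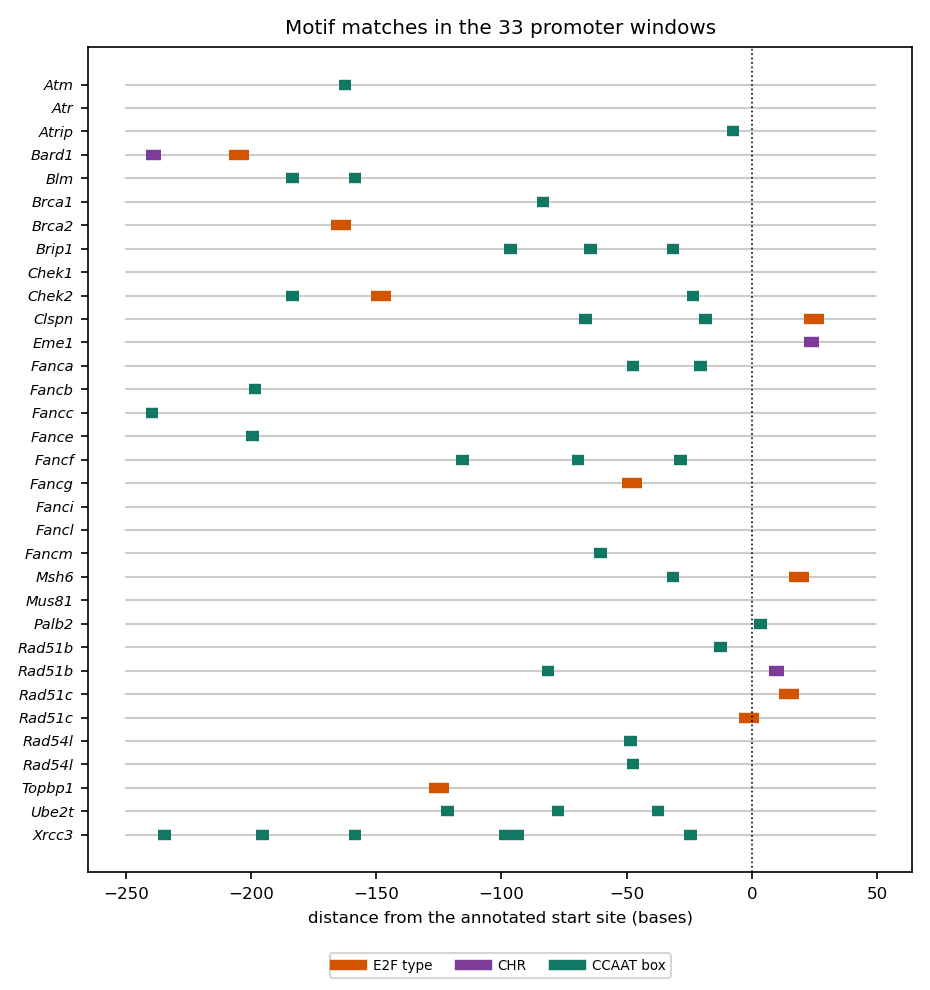
Positions of E2F-type, CHR and CCAAT matches relative to the start site (0, in bases) in the promoter windows of the 35-gene group, 1 row per window. Of the 33 windows, 9 hold an E2F-type octamer and 21 a CCAAT box.

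Several of the genes share exons with a neighbour, which bears on how firmly their values are known. Reads that overlapped several genes were left out according to the study's methods, and whether the counting used strand is not given in the sources used here. Neighbours on the opposite strand covered 16.0% of the exonic bases of Fanci (Polg), 16.4% of Fancc (Gm16133), 15.4% of Rad54l (Lrrc41), 15.0% of Fancf (Gas2), 13.7% of Fancl (Vrk2) and 10.5% of Fanca (Zfp276). For Eme1 the share was 8.00% (Lrrc59) and for Mus81 4.85% (Efemp2). On the same strand Atrip shared 16.0% with Trex1, and Topbp1 has 2 processed pseudogenes in the annotation, so these values are uncertain to that extent.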

How the data were processed

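According to the labels, RNA was isolated with a miRNeasy kit and sequenced with the SMART-Seq HT kit, and the submitters' processing notes list Trimmomatic 0.38, STAR 2.7.7a, featureCounts 1.6.5 and DESeq2 1.30.0 with the genome mm10. The study's methods name other versions, another trimmer and a stranded kit, and counting within exons. The values deposited by the authors are a read signal, whole numbers that behave as read counts scaled by a factor for each library, and not raw counts, so tests for counts were not used. The design text speaks of more replicates than the 2 per group analysed here.

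Values were transformed as log2(value + 1). The fit took genes whose mean value was at least 5, which left out 5022 of 18943 genes, and all 35 members passed. Limma 3.58.1 in R 4.3.3 (lmFit and eBayes with a trend) was fitted to all 6 libraries without a block, with Benjamini-Hochberg adjustment over the 13921 tested genes. The threshold was an adjusted p of 0.05, and counts with a log2 fold change of at least 1 are given beside it. Fold changes are on the log2(value + 1) scale, which understates changes of low genes. The fit was also run on simulated data in which all planted changes exceeded 2-fold and lay under ET-3. That run does not bear on smaller changes or on NT. Levels per kilobase used the joined length of all exons of a gene in the GENCODE annotation of GRCm38. The factors were fitted to how often each whole number occurs. Python 3.11.15 prepared the tables.

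The members and the gene lists were chosen with earlier results of these data known. All members are named, and from each other list at most the 4 genes with the largest change among those changed at least 2-fold under both ligands. Single marker genes of cell types and cell states, and the genes given under other observations, were named outside this rule, after their values were seen. Some results are not reported here. Alternatives covered the filter, the scaling, the pseudocount (0.5 and 5), voom weights, a fit of 2 groups, a replicate block, each treated pair as 1 sample, no fold-change threshold and each library left out in turn.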

Additional observations from a re-analysis of the deposited data

Results flagged for a closer look

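Of the 35 genes, 4 had an effect that differed between the ligands by the test of the difference itself (NT against ET-3, limma adjusted p of at most 0.05). The log2 difference, NT minus ET-3, was 0.31 for Fancm, 0.23 for Brca1, 0.30 for Brca2 and 0.25 for Atm, each with both NT libraries above both ET-3 libraries. The adjusted p of these 4 genes lay between 0.0379 and 0.0485, close to the threshold, and with any library left out 0 of all tested genes passed, these 4 included.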

How the results depend on the processing

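With no fold-change threshold, the calls numbered 30 under ET-3 and 33 under NT in place of 13 and 15. Taking the mean of each treated pair as 1 sample, 15 and 17 genes passed an adjusted p of at most 0.05 in place of 30 and 33, with fewer residual degrees of freedom, and 15 and 16 genes lost that call. Scaling to library totals moved the median log2 fold change of the 35 genes to 0.92 under ET-3 and 0.98 under NT. For NT against ET-3, the 4 genes became 0 without the filter, in a fit of the 2 groups alone, with treated pairs as 1 sample and with the replicate block, 1 with pseudocount 0.5 and 6 with voom weights, and stayed 4 in number with the other scalings and pseudocount 5. The cause was not tested. Without any 1 library the count was 0 in each case. Leaving out each library in turn gave 11 to 13 genes at least 2-fold higher under ET-3 and 14 to 16 under NT, and a median log2 fold change from 0.74 (without the second DMSO library) to 0.85 under ET-3 and from 0.82 to 0.91 under NT. The log2 fold change of Rad51c under ET-3 lay between -0.01 (without the second ET-3 library) and 0.34 (without the first). Where 1 library was left in a group, it was assumed to vary like the other groups.

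The replicate numbers did not pair the libraries. Deviations of same-numbered libraries from their group means correlated at -0.01 (DMSO and ET-3), -0.07 (DMSO and NT) and -0.02 (ET-3 and NT). With the replicate block the counts at an adjusted p of at most 0.05 were 30 and 33, the 2-fold counts 13 and 15, and for NT against ET-3 0. All 35 genes kept their direction and side of the threshold against DMSO with the block. The fewest recovered reads in a library were those of Rad51b, Fancf and Fancg.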

Other observations

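The genes given here were chosen after their values were seen. Cdkn1a, the cyclin-dependent kinase inhibitor p21, had values of 1431 and 1594 under DMSO, 783 and 791 under ET-3, and 664 and 626 under NT, for log2 fold changes of -0.94 and -1.23 (SE 0.06). Trp53, the gene of p53 itself, had values of 622 and 643 under DMSO, 939 and 877 under ET-3, and 808 and 773 under NT, for log2 fold changes of 0.52 and 0.32 (SE 0.05). Trp53bp1, which encodes the 53BP1 protein that shields broken ends from resection, fell from 1280 and 1247 under DMSO to 573 and 601 under ET-3 and 669 and 649 under NT, for log2 fold changes of -1.10 and -0.94 (SE 0.05). Eme2, the alternative partner of MUS81, fell from 162 and 133 under DMSO to 62 and 79 under ET-3 and 80 and 91 under NT, for log2 fold changes of -1.06 and -0.78 (SE 0.16).

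Rad51d, a recombination mediator outside the 35 genes, had 148 and 124 under DMSO, 105 and 82 under ET-3, and 130 and 114 under NT. It fell under ET-3 (-0.54, SE 0.15, limma adjusted p = 0.00950), and the difference under NT did not pass (-0.15, SE 0.15, limma adjusted p = 0.398). Rev3l, the catalytic subunit of the translesion polymerase zeta, fell with log2 fold changes of -0.61 and -0.49 (SE 0.07).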
